A study of Homo sapiens with 24 samples.

Results

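Integrins and laminins are partners in the attachment of cells to the basement membrane, the sheet of matrix under epithelia. The 32 genes described here encode 22 integrin subunits and 10 laminin chains. They were taken as a named list of symbols, each of which matched 1 Ensembl identifier among the 60675 genes counted. RNA sequencing measured their transcripts in 24 libraries from MDA-MB-436 and MDA-MB-231, established human cell lines from triple-negative breast cancers. Each line has 4 groups of 3 libraries. Cells labelled MDM2 shRNA, a hairpin that lowers a matching transcript, are set against cells with a non-targeting hairpin. Cells treated with YX-2-30, a PROTAC (a small molecule that brings its target, here MDM2, to a ubiquitin ligase for destruction), are set against cells given the solvent DMSO. All were grown in DMEM with serum, and neither the dose and duration of the PROTAC nor the sequence of any hairpin is stated in the sources used here.

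An integrin is a pair of 1 alpha and 1 beta subunit in the cell membrane, and the pair decides which matrix protein is bound. A laminin is a cross-shaped secreted protein of 1 alpha, 1 beta and 1 gamma chain, assembled in the cell before it is secreted. In breast epithelium, the integrins alpha3-beta1, alpha6-beta1 and alpha6-beta4 bind laminins, and alpha6-beta4 does so in hemidesmosomes, the rivets that tie intermediate filaments to the basement membrane.

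Library totals lay between 33.4 and 174.7 M counts (M, 1e6). Levels are CPM, counts per 1e6 counts, on library sizes scaled by TMM, and changes were tested over all genes with edgeR's quasi-likelihood test and Benjamini-Hochberg adjustment at a threshold of 0.05. The labels do not tell whether replicate libraries are separate cultures, so p-values measure only the spread between these libraries. The targeted transcript, MDM2, averaged 26.0 ± 3.77 CPM in MDA-MB-231 libraries labelled MDM2 shRNA and 17.7 ± 5.80 CPM with the non-targeting shRNA (SD, n = 3 each, adjusted p = 0.137). In MDA-MB-436 it averaged 23.7 ± 7.68 CPM in libraries labelled MDM2 shRNA and 25.4 ± 4.52 CPM with the non-targeting shRNA (SD, n = 3 each, adjusted p = 0.78). MDM2 RNA was thus not called lower under either hairpin label. With the PROTAC it averaged 22.2 ± 2.01 CPM, against 18.5 ± 4.78 CPM with DMSO, in MDA-MB-231 (SD, n = 3 each, adjusted p = 0.513), and 23.5 ± 1.71 CPM, against 36.0 ± 5.55 CPM with DMSO, in MDA-MB-436 (adjusted p = 0.0573, n = 3 each). A PROTAC acts on the protein, which was not measured. As markers of the labelled lines, the epithelial keratin KRT18 averaged at least 213 CPM and the mesenchymal VIM at least 683 CPM in every group. The E-cadherin gene CDH1 averaged at most 0.503 CPM, and the hormone receptor transcripts ESR1 and PGR summed to at most 0.554 CPM in any library. The epithelial KRT8 averaged at least 263 CPM and the mesenchymal AXL at least 213 CPM in every group. Several other markers of these lists were low or differed between lines. The epithelial KRT19 averaged at least 335 CPM in MDA-MB-231 groups and at most 0.880 CPM in those of MDA-MB-436. The mesenchymal CDH2 averaged at most 0.539 CPM in MDA-MB-231 and at least 106 CPM in MDA-MB-436. In every group the mesenchymal SPARC averaged at most 3.37 CPM and the epithelial ESRP1 at most 0.649 CPM.

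On the scaled values, fewer integrin and laminin transcripts rose than fell in each of the 4 treatment comparisons. In bulk RNA, fewer cells of a kind and less RNA per cell cannot be told apart. In MDA-MB-231 25 of the 32 genes had counts enough to be tested, and in MDA-MB-436 30 had. With the MDM2 shRNA label in MDA-MB-231, 1 rose and 11 fell of 25, or 48% called, against 22.7% of all 20675 genes tested. With the PROTAC in that line, 2 rose and 10 fell of 25, again 48%, against 22.6% of all genes. In MDA-MB-436 libraries labelled MDM2 shRNA, 5 rose and 8 fell of 30, or 43.3%, against 30.4% of 22663 genes. With the PROTAC in that line, 5 rose and 11 fell of 30, or 53.3%, against 32.4% of all genes. Among all genes, calls divided almost evenly, with 11.1% higher and 11.6% lower for the hairpin and 11.1% higher and 11.5% lower for the PROTAC in MDA-MB-231. Of the genes tested in MDA-MB-436, 16% were higher and 14.4% lower for the hairpin, and 17.3% were higher and 15.1% lower for the PROTAC.

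In MDA-MB-231 the tested members had a median log2 change of -0.23 for the hairpin label and -0.21 for the PROTAC, where the medians of all genes were 0.01 and -0.00601. In MDA-MB-436 the members' medians were -0.09 with the hairpin label and -0.32 with the PROTAC, where the medians of all genes were 0.04 and 0.04. Without scaling beyond library totals, the medians of all genes moved to 0.11 and 0.08 in MDA-MB-231 and to 0.22 and 0.21 in MDA-MB-436. The share of all calls that were higher then moved to 68% and 65.6% in MDA-MB-231, against 48.8% and 49.1% with scaling, and to 72.8% and 70.9% in MDA-MB-436, against 52.5% and 53.4%. Members divided into 2 higher and 10 lower, 2 and 8, 10 and 7, and 6 and 9 without scaling, for the hairpin and PROTAC of MDA-MB-231 and then of MDA-MB-436. The lead of falls over rises in MDA-MB-436 hairpin libraries therefore depends on the scaling. No called change of a member turned its direction under any alternative tried.

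**Figure D1:**
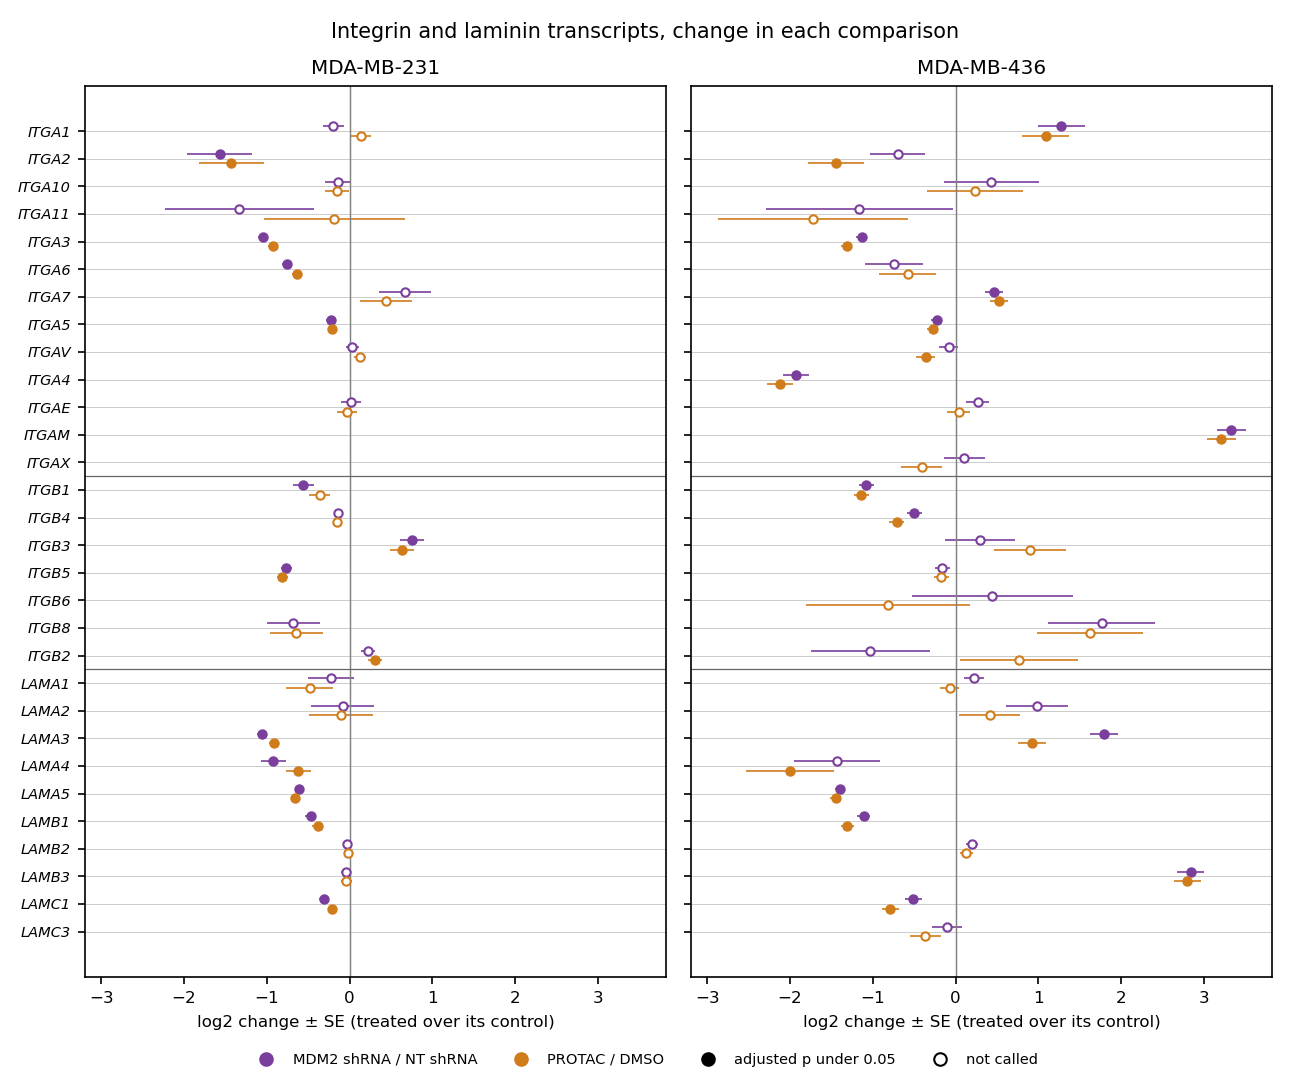
Log2 change with its standard error (x axis) of the 30 members tested in at least 1 line, in MDA-MB-231 (left) and MDA-MB-436 (right), for the MDM2 shRNA label over the non-targeting shRNA (purple) and the PROTAC over DMSO (orange). Filled points passed an adjusted p of 0.05, and horizontal lines separate alpha subunits, beta subunits and laminin chains. ITGAM and LAMB3 lie near 3 in MDA-MB-436, while ITGA3, LAMA5 and LAMB1 lie below 0 in both lines.

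A group of 5 members was lower in all 4 comparisons. These were the integrin alpha subunits ITGA3 and ITGA5 and the laminin chains LAMA5, LAMB1 and LAMC1, out of 25 members tested in both lines. Without scaling, ITGA5 was not called in any of the 4 (adjusted p from 0.111 to 0.582). LAMC1 then lost its PROTAC call in MDA-MB-231 (0.0982). Of all 19009 genes tested in both lines, 3.35% were lower in all 4 comparisons and 2.73% were higher in all 4. No member was higher in all 4. Opposite calls in the 2 treatments of a line were made for 0 members, and for 0.00967% of all genes in MDA-MB-231 and 0.0221% of those in MDA-MB-436. The 3 treated libraries lay all above or all below their 3 controls for 39% of all genes with the hairpin label and 39.1% with the PROTAC in MDA-MB-231, and for 52% and 42.3% in MDA-MB-436, which is the background for groups said below not to overlap. Of all genes, 16.6% were called in the same direction in both treatments of MDA-MB-231 and 24.2% in both treatments of MDA-MB-436. Among members, 10 were lower and 1 was higher in both treatments of MDA-MB-231, and 8 were lower and 5 higher in both treatments of MDA-MB-436.

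Among the laminins, the 3 chains LAMA5, LAMB1 and LAMC1 can make up 1 trimer, a common laminin of adult basement membranes, and all 3 were lower in both lines. LAMA5, the alpha chain, lies on chromosome 20 (62307955 to 62367312, minus strand, GRCh38) and had 226, 251 and 237 CPM in MDA-MB-231 libraries labelled MDM2 shRNA, against 368, 369 and 352 CPM with the non-targeting shRNA. LAMA5 had 231.2, 235 and 244 CPM with the PROTAC in that line, against 391, 366 and 366 CPM with DMSO. All treated libraries lay below all controls, and the log2 changes were -0.61 ± 0.0467 for the hairpin label and -0.66 ± 0.0467 for the PROTAC (± SE here and below, adjusted p = 5.43e-06 and 3.1e-06). In MDA-MB-436, LAMA5 had 172, 168 and 167 CPM in libraries labelled MDM2 shRNA, against 438, 454 and 441 CPM with the non-targeting shRNA. PROTAC libraries of MDA-MB-436 had 149.7, 180.2 and 168 CPM, against 453, 449 and 455 CPM with DMSO. Levels with treatment were thus well under the controls, at 0.380 of the control for the hairpin label and 0.367 for the PROTAC (log2 -1.395 ± 0.0648 and -1.45 ± 0.0649, adjusted p = 9.42e-08 and 6.84e-08). The exons of LAMA5 overlap those of ADRM1 and LAMA5-AS1 on the other strand, and whether counting used the strand is not stated.

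LAMB1, the most widespread beta chain, had 122, 118 and 130.2 CPM in MDA-MB-436 libraries labelled MDM2 shRNA, against 275, 256 and 267 CPM with the non-targeting shRNA. Its PROTAC libraries in that line had 102, 126 and 120.0 CPM, against 281, 291 and 289.9 CPM with DMSO. Both falls were beyond a factor of 2 (log2 -1.11 ± 0.0775 and -1.31 ± 0.0779, adjusted p = 1.47e-06 and 4.57e-07). In MDA-MB-231, LAMB1 had 60.5, 52.7 and 54.9 CPM in libraries labelled MDM2 shRNA against 73.5, 76.9 and 82.3 CPM with the non-targeting shRNA, and 59.9, 57.7 and 58.7 CPM with the PROTAC against 80.7, 77.7 and 71.9 CPM with DMSO. These falls were smaller, at -0.47 ± 0.0659 and -0.39 ± 0.0659 on the log2 scale (adjusted p = 0.000405 and 0.00153), and no library of a treated group reached its controls. LAMB1 also shares exon sequence with DLD on the other strand.

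LAMC1, the gamma chain shared by most laminins, had 219, 229.9 and 239.9 CPM in MDA-MB-436 libraries labelled MDM2 shRNA against 335, 329 and 317 CPM with the non-targeting shRNA. LAMC1 had 179, 250.2 and 228 CPM with the PROTAC in that line, against 394, 346 and 393 CPM with DMSO. Falls of LAMC1 in MDA-MB-436 came to -0.51 ± 0.105 and -0.79 ± 0.106 (log2, adjusted p = 0.00323 and 0.00016). MDA-MB-231 libraries labelled MDM2 shRNA had 273, 238 and 269 CPM against 322, 322 and 325 CPM with the non-targeting shRNA, and PROTAC libraries had 269.5, 258 and 269 CPM against 319.7, 309.7 and 294 CPM with DMSO. The changes in MDA-MB-231 were -0.31 ± 0.0531 and -0.21 ± 0.0531 (log2, adjusted p = 0.00147 and 0.0133), with no overlap between groups. The PROTAC call in MDA-MB-231 was lost without scaling (adjusted p = 0.0982), in one fit of all 24 libraries (0.122) and without DMSO replicate 1 (0.0526) or PROTAC replicate 2 (0.0578).

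LAMB3 and LAMA3 encode chains of the laminin of anchoring filaments, the form under hemidesmosomes in skin and breast, and in MDA-MB-436 they rose where LAMA5, LAMB1 and LAMC1 fell. LAMB3 (chromosome 1, 209614870 to 209652466, minus strand) had 143, 146 and 134 CPM in MDA-MB-436 libraries labelled MDM2 shRNA, against 17.6, 21.5 and 19.96 CPM with the non-targeting shRNA. LAMB3 had 129, 165 and 105 CPM with the PROTAC in that line, against 17.8, 22.3 and 17.2 CPM with DMSO. Every treated library lay several-fold above every control, with estimated ratios of 7.17 (95% interval 5.59 to 9.19) and 6.96 (5.43 to 8.92), and adjusted p = 3.7e-07 and 4.03e-07. MDA-MB-231 already held far more of it, with 798, 802 and 798 CPM in libraries labelled MDM2 shRNA against 795, 832 and 845 CPM with the non-targeting shRNA, and 789, 715 and 752 CPM with the PROTAC against 869, 726 and 725 CPM with DMSO. There the groups overlapped and no change was called, and the intervals of the ratio were 0.878 to 1.07 for the hairpin label and 0.881 to 1.07 for the PROTAC. Treated MDA-MB-436 cells stayed below the level of MDA-MB-231.

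LAMA3 was lower in MDA-MB-231 and higher in MDA-MB-436, in both treatments of each. It had 33.5, 34.2 and 34.2 CPM in MDA-MB-231 libraries labelled MDM2 shRNA, against 69.4, 74.6 and 68.3 CPM with the non-targeting shRNA. PROTAC libraries of that line had 36.9, 36.1 and 34.6 CPM, against 70.5, 70.1 and 62.7 CPM with DMSO. Treatment thus left about the same low level in both experiments, with log2 changes of -1.06 ± 0.0603 and -0.92 ± 0.0601 (adjusted p = 6.06e-07 and 1.76e-06). In MDA-MB-436, LAMA3 had 11.9, 12.3 and 11.1 CPM in libraries labelled MDM2 shRNA, against 3.41, 2.87 and 3.86 CPM with the non-targeting shRNA. It had 8.89, 13.6 and 11.7 CPM with the PROTAC in that line, against 6.28, 6.26 and 5.54 CPM with DMSO. All treated libraries lay above their controls, by 1.80 ± 0.168 and 0.92 ± 0.165 on the log2 scale (adjusted p = 1.21e-05 and 0.00117). No other member was called in opposite directions in the 2 lines.

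LAMA4, an alpha chain known from vessel and mesenchymal basement membranes, was lower in MDA-MB-231, with 4.42, 3.74 and 5.14 CPM in libraries labelled MDM2 shRNA against 8.51, 9.32 and 7.35 CPM with the non-targeting shRNA. LAMA4 had 5.30, 4.98 and 5.23 CPM with the PROTAC in that line, against 9.39, 7.23 and 7.197 CPM with DMSO. These groups did not overlap (log2 -0.92 ± 0.15 and -0.62 ± 0.149, adjusted p = 0.00113 and 0.0115). MDA-MB-436 held less, with 0.132, 1.04 and 0.887 CPM in PROTAC libraries against 2.24, 2.897 and 3.12 CPM with DMSO, a change of -2.00 ± 0.527 (log2, adjusted p = 0.0125). Its hairpin-labelled libraries had 0.728, 0.732 and 1.18 CPM against 2.63, 2.21 and 2.28 CPM with the non-targeting shRNA (-1.43 ± 0.514, adjusted p = 0.0558), which missed the threshold. That hairpin change passed it with DESeq2, limma voom, a filter of 1 CPM or counts divided by 4. It also passed in one fit of all 24 libraries, with the 6 libraries alone and without PROTAC replicate 1 or 2. The PROTAC call in MDA-MB-436 was lost when the 6 libraries were fitted alone (adjusted p = 0.0578), and both calls in MDA-MB-231 were lost in one fit of all 24 libraries (0.113 and 0.323).

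The other laminin chains were not called in any treatment comparison. LAMB2, a beta chain of muscle, kidney and mammary basement membranes, was abundant, with 311 to 332 CPM in treated and 314 to 333 CPM in control libraries of MDA-MB-231, and 92.5 to 114 CPM in treated and 88.3 to 97.0 CPM in control libraries of MDA-MB-436. Its ratio had intervals of 0.924 to 1.03 and 0.932 to 1.04 in MDA-MB-231. For MDA-MB-436 they were 1.02 to 1.29 with the hairpin label (adjusted p = 0.0724), where all treated libraries lay above all controls, and 0.975 to 1.23 with the PROTAC (adjusted p = 0.227). The hairpin change passed the threshold without scaling, with a filter of 1 CPM, with counts divided by 4, in one fit of all 24 libraries, with the 6 libraries alone and without PROTAC replicate 2, and the PROTAC change passed it without scaling. LAMA1, the alpha chain of embryonic basement membranes, had 53.6 to 73.3 CPM in treated and 55.7 to 73.5 CPM in control libraries of MDA-MB-436, and at most 2.38 CPM in MDA-MB-231. Its MDA-MB-436 libraries labelled MDM2 shRNA (59.4 to 73.3 CPM) all lay above those with the non-targeting shRNA (55.7 to 59.0 CPM). That hairpin change passed the threshold without scaling. LAMA2, the alpha chain of muscle, was at most 2.66 CPM in any library. Its MDA-MB-436 libraries labelled MDM2 shRNA all lay above those with the non-targeting shRNA (log2 0.99 ± 0.373, adjusted p = 0.0679), a change that was not called but passed the threshold with DESeq2, limma voom, no scaling, counts divided by 4, the 6 libraries alone or PROTAC replicate 3 left out. LAMC3, a gamma chain, had 2.69 to 6.01 CPM in treated and 4.41 to 6.20 CPM in control libraries of MDA-MB-436 and was near 0 in MDA-MB-231.

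**Figure D2:**
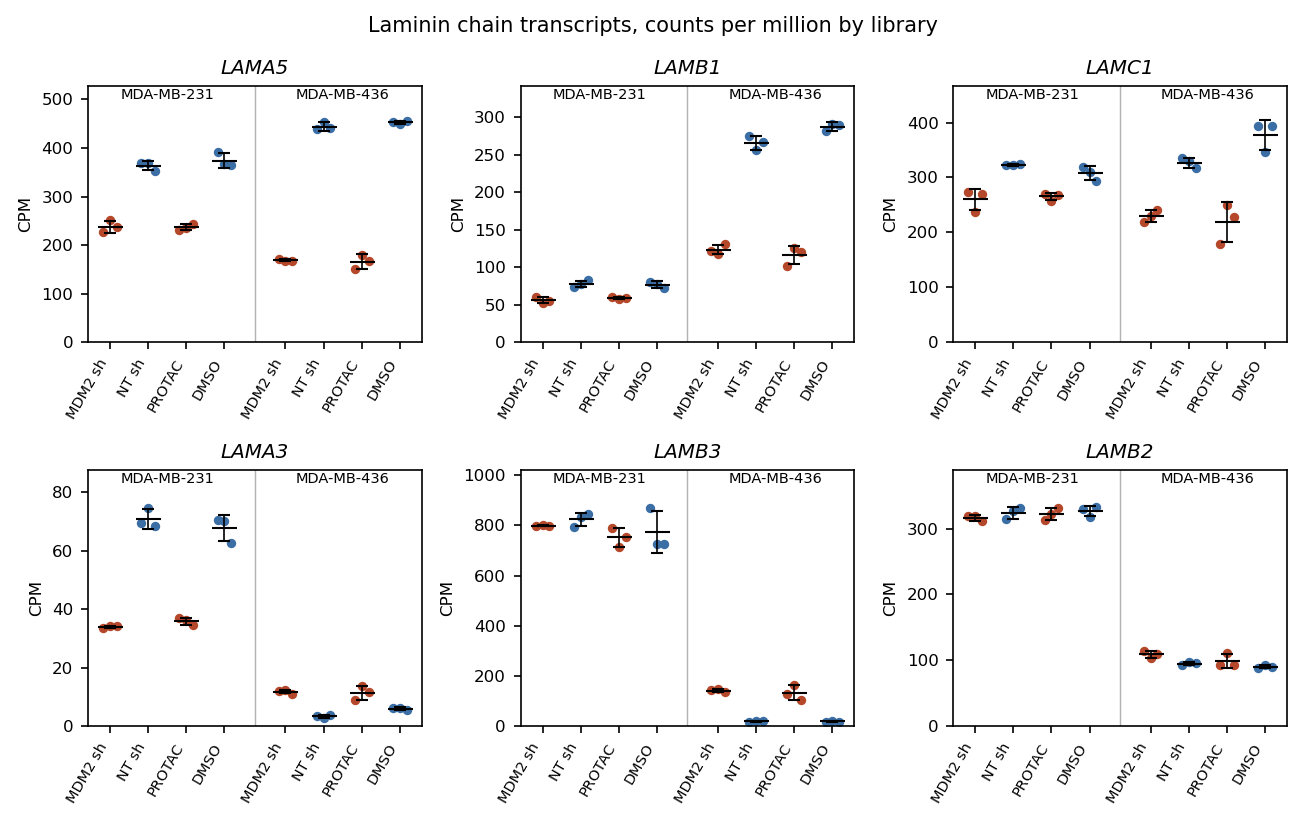
CPM of 6 laminin chains in each library (points), with the mean and SD of each group of 3 (bars), for treated groups (red) left of their controls (blue) in each line. LAMA5, LAMB1 and LAMC1 were lower in every treated group, LAMB3 was higher only in treated MDA-MB-436 groups among those plotted, and no LAMB2 group was called.

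Promoter sequence was read for 23 of the 32 members, from RefSeq on GRCh38.p14. Bases before the first annotated start are shown for the chains that fell together in both lines (LAMA5, LAMB1, LAMC1) and for 2 genes with the steepest rise in MDA-MB-436 (LAMB3, ITGAM). They run 5′ to 3′ on the gene's strand and stop where GENCODE 29 begins an exon of the gene. Capitals mark the GC box, GGGCGG or its reverse complement CCGCCC, the motif that SP-family factors bind.
LAMA5: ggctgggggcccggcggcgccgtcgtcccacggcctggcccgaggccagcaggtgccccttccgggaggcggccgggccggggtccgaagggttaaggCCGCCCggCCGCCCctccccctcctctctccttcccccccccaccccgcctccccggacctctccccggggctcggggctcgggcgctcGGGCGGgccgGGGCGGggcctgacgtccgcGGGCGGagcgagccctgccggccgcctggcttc
LAMB1: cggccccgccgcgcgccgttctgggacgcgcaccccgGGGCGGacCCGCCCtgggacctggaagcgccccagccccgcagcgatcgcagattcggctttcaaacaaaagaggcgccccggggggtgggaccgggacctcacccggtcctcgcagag
LAMC1: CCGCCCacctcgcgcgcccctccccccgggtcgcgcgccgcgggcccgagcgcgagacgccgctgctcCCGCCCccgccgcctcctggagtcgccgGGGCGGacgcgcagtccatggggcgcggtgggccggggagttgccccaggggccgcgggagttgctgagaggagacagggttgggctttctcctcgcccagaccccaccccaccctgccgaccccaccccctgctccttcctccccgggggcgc
LAMB3: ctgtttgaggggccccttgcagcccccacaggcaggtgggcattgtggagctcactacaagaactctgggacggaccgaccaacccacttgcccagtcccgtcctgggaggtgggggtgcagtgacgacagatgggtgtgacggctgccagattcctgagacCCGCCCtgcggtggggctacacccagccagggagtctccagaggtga
ITGAM: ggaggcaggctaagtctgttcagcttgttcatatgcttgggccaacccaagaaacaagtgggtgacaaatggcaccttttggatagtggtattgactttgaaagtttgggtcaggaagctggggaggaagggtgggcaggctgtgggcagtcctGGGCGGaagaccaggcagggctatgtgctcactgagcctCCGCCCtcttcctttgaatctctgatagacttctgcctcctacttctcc

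These stretches lie at chr20:62367313-62367562, chr7:108003256-108003411, chr1:183023170-183023419, chr1:209652467-209652675 and chr16:31259725-31259966, with LAMA5, LAMB1 and LAMB3 on the minus strand. In the whole 250 bases before the start, the GC box occurred 5 times for LAMA5, 4 times for LAMB1 (2 of them overlapping each other, in the part not shown), 3 times for LAMC1, 1 time for LAMB3 and 2 times for ITGAM. It occurred at least once in 42.2% of 27305 promoters of the same length. GC content was 82.8%, 70.4% and 79.6% for LAMA5, LAMB1 and LAMC1, 64.0% for LAMB3 and 53.2% for ITGAM, beside a median of 57.6% over all promoters. The motif TGANTCA, which AP-1 factors bind, stood in the window of LAMA3 alone among the 23, at 125 and 69 bases before a start inside the gene, and in 6.57% of all promoters. TATAAA, the TATA box, stood in the window of ITGA6 alone, and in 11.2% of all promoters. A match is only a run of letters and was not tested as a binding site.

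Of the laminin-binding alpha subunits, ITGA3 was lower in all 4 comparisons. ITGA3 (chromosome 17, 50055968 to 50090481, plus strand), the alpha3 subunit that pairs with beta1, had 452, 477 and 449 CPM in MDA-MB-231 libraries labelled MDM2 shRNA against 951, 935 and 953 CPM with the non-targeting shRNA. ITGA3 had 450.2, 463 and 541 CPM with the PROTAC in that line, against 954, 921 and 882 CPM with DMSO. The gap between groups was several times their spread, and the ratios were 0.485 and 0.528 (log2 -1.04 ± 0.0624 and -0.92 ± 0.0623, adjusted p = 8.39e-07 and 2.2e-06). MDA-MB-436 libraries labelled MDM2 shRNA had 139, 132 and 129.9 CPM against 277, 314 and 289 CPM with the non-targeting shRNA, and PROTAC libraries had 124, 132 and 129 CPM against 325, 303 and 331 CPM with DMSO. The ratios there were 0.456 and 0.402 (log2 -1.13 ± 0.064 and -1.32 ± 0.0643, adjusted p = 3.25e-07 and 1.15e-07).

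ITGA6, the alpha6 subunit that pairs with beta1 or beta4, had 234, 219 and 235 CPM in MDA-MB-231 libraries labelled MDM2 shRNA against 381, 411 and 374 CPM with the non-targeting shRNA. Its PROTAC libraries in that line had 245, 242 and 230.5 CPM, against 387, 387 and 337 CPM with DMSO. Neither pair of groups overlapped, and ITGA6 changed by -0.76 ± 0.0607 and -0.63 ± 0.0606 on the log2 scale (adjusted p = 7.36e-06 and 2.75e-05). In MDA-MB-436 it had 28.5, 28.1 and 51.6 CPM in libraries labelled MDM2 shRNA against 75.7, 69.8 and 35.6 CPM with the non-targeting shRNA, and 45.7, 32.3 and 53.4 CPM with the PROTAC against 53.9, 49.0 and 93.3 CPM with DMSO. Libraries of 1 group differed there by a factor near 2, the groups overlapped, and changes of similar size were not called (-0.74 ± 0.349 and -0.58 ± 0.348). In one fit of all 24 libraries the MDA-MB-231 calls were lost (adjusted p = 0.0557 and 0.12). The hairpin change in MDA-MB-436 passed the threshold in that fit, and also without MDM2 shRNA replicate 3 of that line.

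ITGA7, a laminin receptor of muscle, was slightly higher in MDA-MB-436, with 13.2, 14.99 and 14.7 CPM in libraries labelled MDM2 shRNA against 10.3, 11.4 and 9.41 CPM with the non-targeting shRNA. ITGA7 had 14.3, 15.1 and 14.5 CPM with the PROTAC, against 11.03, 10.3 and 9.35 CPM with DMSO. All treated libraries lay above their controls (log2 0.46 ± 0.11 and 0.52 ± 0.11, adjusted p = 0.00724 and 0.00355), and both calls were lost in one fit of all 24 libraries (0.144 and 0.0801). In MDA-MB-231 it ranged from 1.06 to 2.10 CPM in treated and 0.579 to 1.48 CPM in control libraries, with no call.

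ITGB1, the beta1 subunit and the most abundant member per kb of exon in the control libraries of both lines, had 196, 166 and 215 CPM in MDA-MB-436 libraries labelled MDM2 shRNA against 410.4, 398 and 409.5 CPM with the non-targeting shRNA. ITGB1 had 190.5, 209 and 230.98 CPM with the PROTAC in that line, against 478, 441 and 467 CPM with DMSO. It thus fell to about the same level in both experiments (ratios 0.474 and 0.455, adjusted p = 7.3e-06 and 4.57e-06). MDA-MB-231 libraries labelled MDM2 shRNA had 943, 908 and 758 CPM against 1288, 1272 and 1283 CPM with the non-targeting shRNA, a change of -0.56 ± 0.126 (log2, adjusted p = 0.00831). PROTAC libraries of that line had 1010.0, 792 and 956 CPM against 951, 1313 and 1274 CPM with DMSO. The first DMSO library was at the level of the treated ones, and the change of -0.36 ± 0.126 missed the threshold (adjusted p = 0.0644), but passed it with DESeq2, in one fit of all 24 libraries and without that DMSO library.

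ITGB4, the hemidesmosome subunit that pairs only with alpha6, had 22.9, 24.5 and 23.3 CPM in MDA-MB-436 libraries labelled MDM2 shRNA against 33.8, 35.1 and 31.1 CPM with the non-targeting shRNA. ITGB4 had 18.5, 19.9 and 19.7 CPM with the PROTAC, against 35.3, 29.1 and 31.0 CPM with DMSO. Treated and control groups were apart, by -0.50 ± 0.0919 and -0.71 ± 0.0924 (log2, adjusted p = 0.00155 and 0.000121). In MDA-MB-231 it had 80.5 to 86.3 CPM in libraries labelled MDM2 shRNA against 91.7 to 93.4 CPM with the non-targeting shRNA. Its PROTAC libraries there had 76.1 to 83.0 CPM, against 84.8 to 94.5 CPM with DMSO. Groups did not overlap in either comparison, but the changes were not called (-0.14 ± 0.0528 and -0.15 ± 0.0528, adjusted p = 0.086 and 0.0598). The PROTAC change there passed the threshold with DESeq2, with a filter of 1 CPM, with counts divided by 4 and without DMSO replicate 2.

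**Figure D3:**
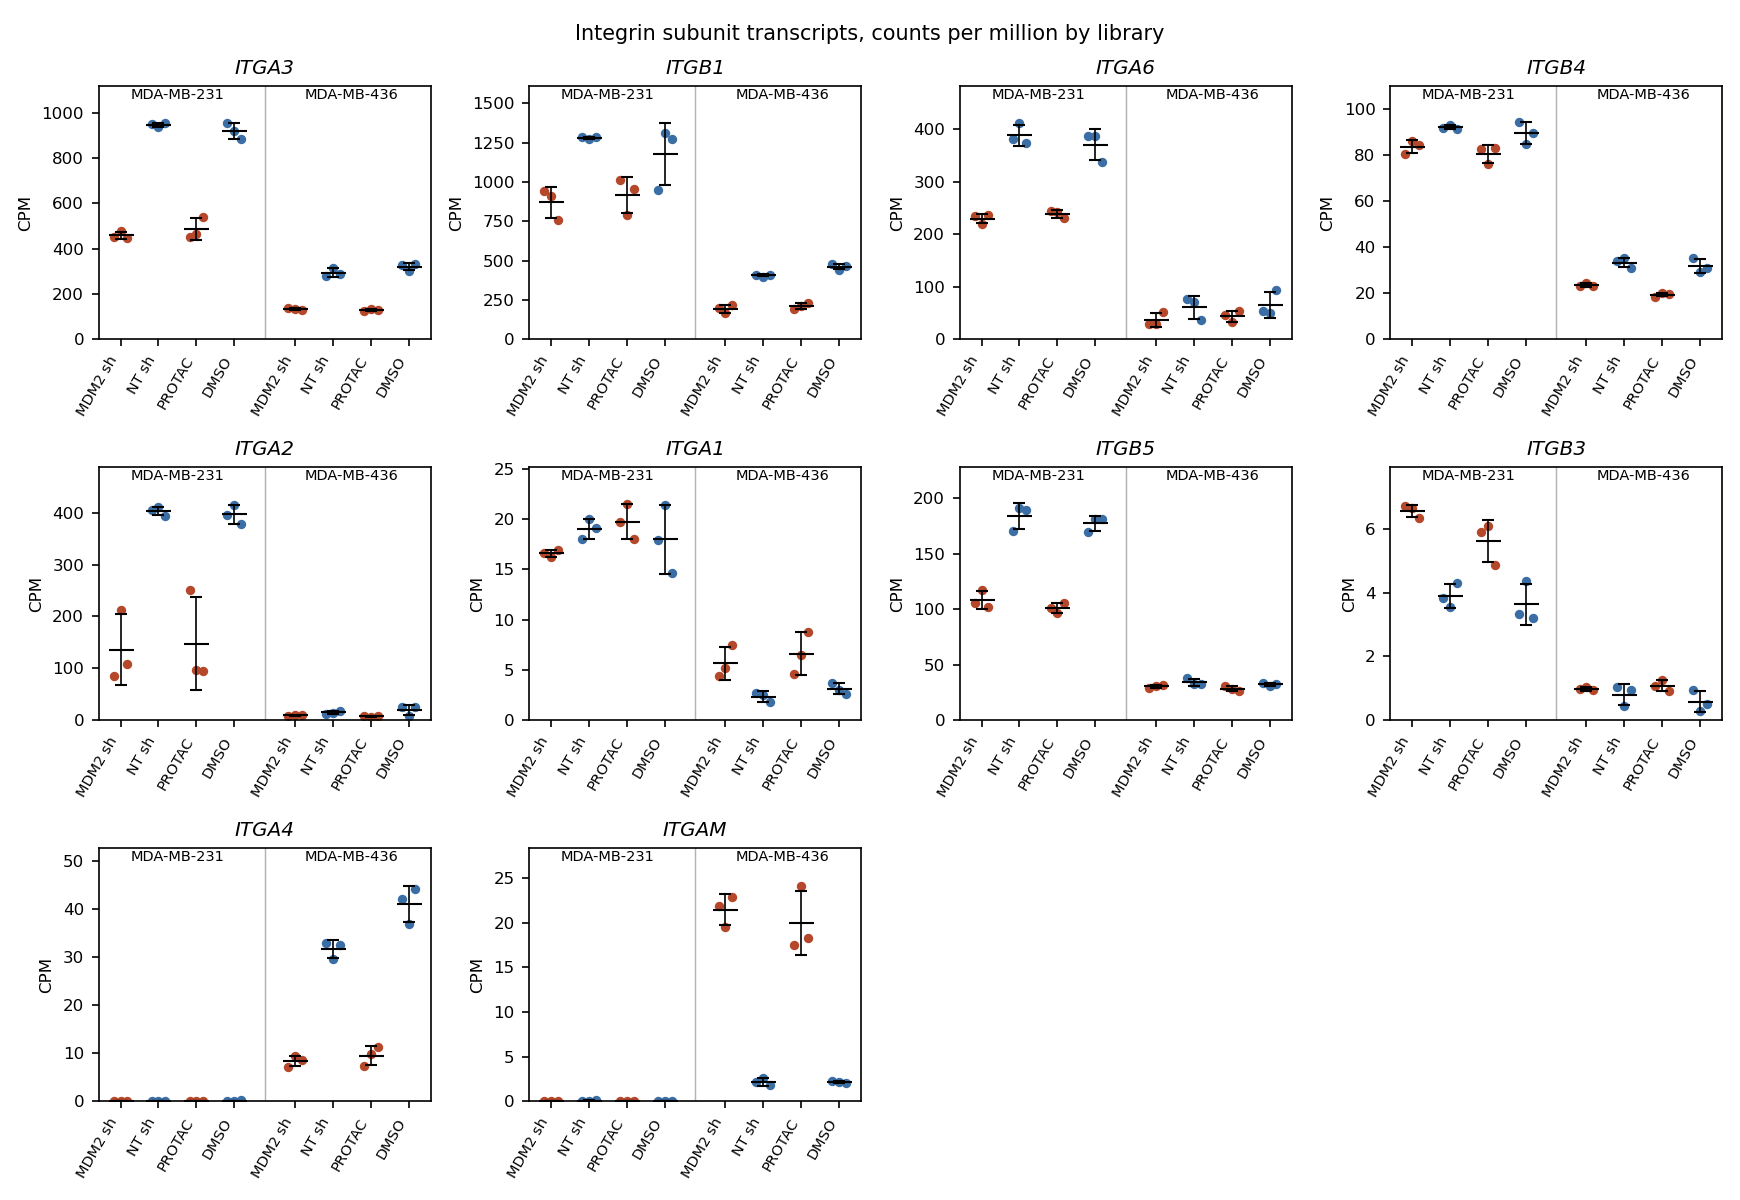
CPM of 10 integrin subunits in each library (points), with the mean and SD of each group of 3 (bars), for treated groups (red) left of their controls (blue) in both lines. ITGA3 and ITGB1 were lower in treated groups of both lines (ITGB1 with overlap for the PROTAC in MDA-MB-231), treated ITGA2 libraries of MDA-MB-231 were uneven, and ITGA4 and ITGAM were measurable in MDA-MB-436 only.

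The collagen-binding alpha subunits, which pair with beta1, did not move together. ITGA2 had 85.1, 213 and 108 CPM in MDA-MB-231 libraries labelled MDM2 shRNA against 404, 411 and 394 CPM with the non-targeting shRNA. ITGA2 had 251, 96.0 and 94.7 CPM with the PROTAC in that line, against 396, 415 and 378 CPM with DMSO. Control libraries were close together, while 1 treated library of each group stood well above the other two, and no treated library reached its controls (log2 -1.57 ± 0.393 and -1.43 ± 0.392, adjusted p = 0.0144 and 0.0226). The hairpin call was lost without replicate 1 or 3 of the MDM2 shRNA label (adjusted p = 0.0547 and 0.0585), and the PROTAC call without DMSO replicate 1 or 2 or PROTAC replicate 2 or 3 (0.0506 to 0.0841). In MDA-MB-436, ITGA2 had 7.79, 6.71 and 7.07 CPM in PROTAC libraries against 25.2, 8.24 and 25.2 CPM with DMSO (-1.44 ± 0.338, adjusted p = 0.00656), where the second DMSO library was close to the treated ones. Libraries labelled MDM2 shRNA in that line had 8.39, 9.52 and 9.52 CPM against 11.6, 14.6 and 18.2 CPM with the non-targeting shRNA (-0.70 ± 0.333, adjusted p = 0.144), which was not called. These groups did not overlap, and the change passed the threshold with the 6 libraries alone and without DMSO replicate 2.

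ITGA1 was higher in MDA-MB-436, with 4.34, 5.14 and 7.51 CPM in libraries labelled MDM2 shRNA against 2.73, 2.54 and 1.76 CPM with the non-targeting shRNA. ITGA1 had 4.54, 6.49 and 8.81 CPM with the PROTAC, against 3.73, 2.95 and 2.65 CPM with DMSO. Treated libraries varied by a factor near 2 but stayed above the controls (log2 1.28 ± 0.286 and 1.09 ± 0.285, adjusted p = 0.00527 and 0.0122). In MDA-MB-231 it had 16.2 to 21.5 CPM in treated and 14.6 to 21.4 CPM in control libraries and was not called. The gene lies 30.1 kb from ITGA2 on chromosome 5, so neighbours moved in opposite directions with the PROTAC in MDA-MB-436. Some exon bases of ITGA1 are shared with PELO on the same strand, and reads there may be split between them. ITGA10 was at most 6.91 CPM and ITGA11 at most 1.14 CPM in any library, and neither was called.

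Among the subunits that bind the RGD motif of fibronectin and vitronectin, ITGA5, the fibronectin receptor alpha, was a little lower in every treated group. It had 110.1, 107 and 106 CPM in MDA-MB-231 libraries labelled MDM2 shRNA against 125, 122 and 133 CPM with the non-targeting shRNA, and 104, 113 and 108 CPM with the PROTAC against 133, 126 and 118 CPM with DMSO. In MDA-MB-436 it had 57.0, 58.5 and 59.3 CPM in libraries labelled MDM2 shRNA against 70.2, 66.4 and 68.4 CPM with the non-targeting shRNA, and 54.0, 57.8 and 50.6 CPM with the PROTAC against 66.3, 66.0 and 64.5 CPM with DMSO. The groups did not overlap, but the falls were small, from -0.21 ± 0.0543 to -0.28 ± 0.0646 (log2, adjusted p from 0.0182 to 0.00622). All 4 calls were lost without scaling (adjusted p from 0.111 to 0.582), and both in MDA-MB-436 without a filter (0.102 and 0.0528). The PROTAC call in MDA-MB-436 was also lost with the 6 libraries alone (0.0679). Some were also lost when 1 library was left out, namely DMSO or PROTAC replicate 1 in MDA-MB-231 (0.0683 and 0.0668) and, for the hairpin in MDA-MB-436, non-targeting replicate 1 or 3 or MDM2 shRNA replicate 1 or 2 (0.0537 to 0.0648).

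ITGAV, the alphaV subunit that pairs with several beta subunits, had 184 to 265 CPM with the PROTAC in MDA-MB-436 and 255 to 301 CPM with DMSO. The ranges overlapped and the change of -0.36 ± 0.115 (log2, adjusted p = 0.0328) was lost when any 1 of 7 libraries was left out (0.0526 to 0.129), without scaling (0.245) and with the 6 libraries alone (0.128). These 7 were all 3 non-targeting libraries, DMSO replicates 1 and 3 and PROTAC replicates 1 and 2. It was not called in the other comparisons, with 88.0 to 99.8 CPM in treated and 80.5 to 99.1 CPM in control libraries of MDA-MB-231. In MDA-MB-436 ITGAV averaged 197 CPM with the MDM2 shRNA label and 208 CPM with the non-targeting shRNA. It averaged 221 CPM with the PROTAC and 283 CPM with DMSO in that line. The control groups differed, as non-targeting libraries (203 to 213 CPM) all lay below those with DMSO (255 to 301 CPM).

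ITGB5, a vitronectin receptor beta, had 105, 117 and 102 CPM in MDA-MB-231 libraries labelled MDM2 shRNA against 171, 191 and 189.7 CPM with the non-targeting shRNA. ITGB5 had 101, 96.4 and 106 CPM with the PROTAC in that line, against 169.9, 182 and 181 CPM with DMSO. The groups were far apart (log2 -0.76 ± 0.0647 and -0.81 ± 0.0648, adjusted p = 1.13e-05 and 7.3e-06). MDA-MB-436 had 26.4 to 31.5 CPM in treated and 30.6 to 37.9 CPM in control libraries and no call. There, libraries labelled MDM2 shRNA (28.8 to 31.5 CPM) all lay below those with the non-targeting shRNA (32.2 to 37.9 CPM).

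ITGB3, known from platelets and osteoclasts, was the one member higher in both treatments of MDA-MB-231. It had 6.70, 6.65 and 6.33 CPM in libraries labelled MDM2 shRNA against 3.83, 3.56 and 4.29 CPM with the non-targeting shRNA, and 5.90, 6.08 and 4.87 CPM with the PROTAC against 3.32, 4.35 and 3.203 CPM with DMSO. Levels were low, but no treated library reached down to its controls (log2 0.75 ± 0.143 and 0.63 ± 0.143, adjusted p = 0.00306 and 0.00814). Both calls were lost in one fit of all 24 libraries (0.112 and 0.189), and more than 2 kb of its exons overlap another annotated gene on the same strand. In MDA-MB-436 ITGB3 had 0.915 to 1.26 CPM in treated and 0.286 to 1.03 CPM in control libraries and was not called. Its PROTAC change there passed the threshold in the fit of all 24 libraries and without DMSO replicate 1. ITGB8, which pairs with alphaV and releases active TGF-beta in other tissues, was uneven in MDA-MB-436, with 3.19 to 14.4 CPM in treated and 0.832 to 4.45 CPM in control libraries, and was not called there (1.76 ± 0.644 and 1.63 ± 0.64, adjusted p = 0.0595 and 0.0746). Both changes passed with DESeq2, in one fit of all 24 libraries and without non-targeting replicate 2 or PROTAC replicate 1. The hairpin change also passed without scaling, without a filter, with a filter of 1 CPM and without MDM2 shRNA replicate 3. Limma voom, the replicate block and counts divided by 4 gave a call for the hairpin as well. ITGB6, an epithelial partner of alphaV, was at most 0.341 CPM in any library.

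Several members are best known from leukocytes, and 2 of them changed steeply in MDA-MB-436. ITGAM, the alpha subunit of the complement receptor of myeloid cells (chromosome 16, 31259967 to 31332892, plus strand), had 21.9, 19.54 and 22.9 CPM in libraries labelled MDM2 shRNA against 2.13, 2.56 and 1.76 CPM with the non-targeting shRNA. ITGAM had 17.5, 24.1 and 18.3 CPM with the PROTAC, against 2.30, 2.15 and 2.05 CPM with DMSO. All treated libraries lay far above the controls, with ratios of 10.0 (95% interval 7.69 to 13.1) and 9.24 (7.08 to 12.1), and adjusted p = 2.04e-07 and 2.55e-07. Its only known partner, ITGB2, was at 0.0477 to 0.693 CPM in treated and 0.149 to 0.602 CPM in control libraries of MDA-MB-436, and was not called. ITGAX, an alpha subunit of dendritic cells that lies 22.2 kb from ITGAM on chromosome 16, had 1.25 to 2.45 CPM in treated and 1.71 to 2.77 CPM in control libraries and was not called. In MDA-MB-231 both genes were near 0 in every library.

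ITGA4, which with beta1 binds fibronectin and VCAM1, fell in MDA-MB-436, with 7.21, 9.36 and 8.55 CPM in libraries labelled MDM2 shRNA against 33.1, 29.6 and 32.6 CPM with the non-targeting shRNA. ITGA4 had 7.40, 9.84 and 11.2 CPM with the PROTAC, against 42.2, 36.9 and 44.2 CPM with DMSO. All treated libraries lay well below their controls (ratios 0.264 and 0.230, adjusted p = 4.49e-06 and 2.17e-06). In MDA-MB-231 ITGA4 was at most 0.140 CPM.

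Leukocyte markers were looked at beside these genes. Their summed level in MDA-MB-436 ran from 35.8 to 42.8 CPM per library with the MDM2 shRNA label and from 31.5 to 40.9 CPM with the non-targeting shRNA, and from 39.1 to 51.4 CPM with the PROTAC and 33.1 to 37.3 CPM with DMSO. Of the 13 markers, 4 averaged at least 1 CPM in each treated group and 3 in each control group. Defining markers MS4A1, CD3D and TYROBP were at 0 in all 4 of these groups, and PTPRC, the pan-leukocyte CD45, averaged at most 0.0842 CPM in any. LCP1, an actin-bundling protein of leukocytes that many cancer lines also express, averaged 4.51 CPM with the MDM2 shRNA label and 0.960 CPM with the non-targeting shRNA, and 3.795 CPM with the PROTAC and 0.979 CPM with DMSO. CD14, a monocyte co-receptor, fell in MDA-MB-436 to 5.87 CPM with the MDM2 shRNA label, against 11.9 CPM with the non-targeting shRNA, and to 6.65 CPM with the PROTAC, against 11.2 CPM with DMSO (log2 -1.02 ± 0.233 and -0.76 ± 0.233). CD68, a lysosomal protein of macrophages, averaged 22.2 CPM with the MDM2 shRNA label and 17.2 CPM with the non-targeting shRNA (not called), and 26.8 CPM with the PROTAC and 16.999 CPM with DMSO (log2 0.65 ± 0.159, higher). The sums thus hold markers that moved in opposite directions.

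The other leukocyte members moved little. ITGB2 in MDA-MB-231 had 13.02 to 14.4 CPM with the PROTAC and 10.9 to 11.5 CPM with DMSO, a rise of 0.30 ± 0.0857 (log2, adjusted p = 0.0265) that was lost when any 1 of 5 libraries (each DMSO library, or PROTAC replicate 2 or 3) was left out (0.0511 to 0.0901), without a filter (0.0673) and in one fit of all 24 libraries (0.705). With the hairpin label it had 12.9 to 15.9 CPM, against 12.4 to 12.7 CPM with the non-targeting shRNA, and was not called. ITGAE, which binds E-cadherin on epithelium, had 15.1 to 36.0 CPM in treated and 14.3 to 31.3 CPM in control libraries over both lines. It was not called, but its hairpin change in MDA-MB-436 passed the threshold without scaling. ITGAL and ITGB7, of lymphocytes, were not tested in either line. The 7 members not tested in MDA-MB-231 (these 2, ITGA4, ITGAM, ITGAX, ITGB6 and LAMC3) had 3 to 25 counts over its 12 libraries, and the 2 not tested in MDA-MB-436 had 38 and 43.

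The hairpin label and the degrader were compared by subtracting their log2 changes within each line. No member differed at an adjusted p of 0.05 in either line, where 0.00484% of all genes did for MDA-MB-231 and 0.00441% for MDA-MB-436. At an unadjusted p under 0.05 there were 0 members of 25 in MDA-MB-231 and 1 of 30 in MDA-MB-436, and DESeq2 and limma voom called 0 in each line. The share of all genes at that unadjusted threshold was not counted, so these counts have no background. The 1 member was LAMA3, whose change with the PROTAC minus that with the hairpin label was -0.87 ± 0.232 (log2, adjusted p = 0.905). Its ratio of ratios was 0.545, with a 95% interval of 0.383 to 0.776 that is not adjusted for picking 1 member of 30. In MDA-MB-436 LAMA3 averaged 11.8 CPM with the MDM2 shRNA label and 11.4 CPM with the PROTAC. Its controls averaged 3.38 CPM with the non-targeting shRNA and 6.03 CPM with DMSO. The treated levels were thus alike and the control levels differed. For LAMA5 that interval was 0.873 to 1.07 in MDA-MB-231 and 0.841 to 1.10 in MDA-MB-436. For ITGA3 it was 0.951 to 1.24 and 0.769 to 1.01, and for LAMB3 in MDA-MB-436 it was 0.698 to 1.35. Intervals for uneven members were far wider, with 0.481 to 2.54 for ITGA2 in MDA-MB-231.

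The lines were compared by subtracting the log2 change in MDA-MB-231 from that in MDA-MB-436, in a fit of all 24 libraries. For the hairpin label, 6 members had a higher and 4 a lower difference of 30 tested, where 19.7% of all genes were called (9.94% higher and 9.77% lower). For the PROTAC, 5 were higher and 8 lower of 30, where 22.3% of all genes were called (11.8% higher and 10.5% lower). LAMB3 and LAMA3 were among the widest apart. The difference was 2.87 ± 0.192 for the hairpin label and 2.85 ± 0.192 for the PROTAC in LAMB3 (adjusted p = 2.56e-09 and 2.78e-09). In LAMA3 it was 2.83 ± 0.18 and 1.84 ± 0.178 (adjusted p = 1.39e-09 and 2.86e-07).

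ITGB5 fell more in MDA-MB-231, with differences of 0.59 ± 0.113 and 0.65 ± 0.113. LAMA5, LAMB1, ITGB1 and ITGB4 fell more in MDA-MB-436 in both treatments. LAMA5 differed by -0.80 ± 0.0839 for the hairpin label and -0.79 ± 0.0839 for the PROTAC, and LAMB1 by -0.66 ± 0.104 and -0.92 ± 0.104 (adjusted p = 0.000108 and 2.02e-06). With the PROTAC, LAMC1 (-0.57 ± 0.123) and ITGA3 (-0.39 ± 0.0931) also fell more in MDA-MB-436. ITGA1 differed by 1.46 ± 0.303 for the hairpin label and 0.95 ± 0.302 for the PROTAC, and ITGB8 by 2.43 ± 0.759 and 2.26 ± 0.755. The PROTAC difference of ITGA1 was lost without any 1 of 7 libraries, namely PROTAC replicates 2 and 3 and DMSO replicates 2 and 3 of MDA-MB-436 and PROTAC replicates 1 and 3 and DMSO replicate 2 of MDA-MB-231 (adjusted p from 0.0501 to 0.0835), and with the replicate block (0.0559). That of ITGB8 was lost for the hairpin label without MDM2 shRNA replicate 1 or 2 or non-targeting replicate 1 or 3 of MDA-MB-436, or MDM2 shRNA replicate 1 or 3 or non-targeting replicate 1 of MDA-MB-231 (0.0572 to 0.0764). For the PROTAC it was lost without PROTAC replicate 2 or 3 or DMSO replicate 1 or 3 of MDA-MB-436, or PROTAC replicate 2 or 3 or DMSO replicate 2 of MDA-MB-231 (0.0675 to 0.093), and with limma voom (0.102). The PROTAC difference of ITGAV was -0.49 ± 0.135. ITGAV was lower with the PROTAC in MDA-MB-436 and not called in MDA-MB-231, where it averaged 96.2 CPM with the PROTAC and 88.3 CPM with DMSO. The call of that difference was lost without scaling (adjusted p = 0.06). The hairpin difference of ITGB1 was lost without MDM2 shRNA replicate 2 or non-targeting replicate 3 of MDA-MB-436, or MDM2 shRNA replicate 1 or 2 or non-targeting replicate 2 of MDA-MB-231 (0.0507 to 0.0723), without scaling (0.0661) and without a filter (0.0579). That of ITGB4 was lost without a filter (0.0967). ITGAM for the hairpin label and ITGAX for the PROTAC were called as well, but their MDA-MB-231 libraries hold almost no counts, so no size is given. The ITGAM call was lost with counts divided by 4 (0.0987). That of ITGAX was lost without any 1 of 16 libraries (all 12 of MDA-MB-436, and DMSO replicates 1, 2 and 3 and PROTAC replicate 1 of MDA-MB-231, adjusted p from 0.0576 to 1), without a filter (0.063), with limma voom (0.257) and with counts divided by 4 (0.154).

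**Figure D4:**
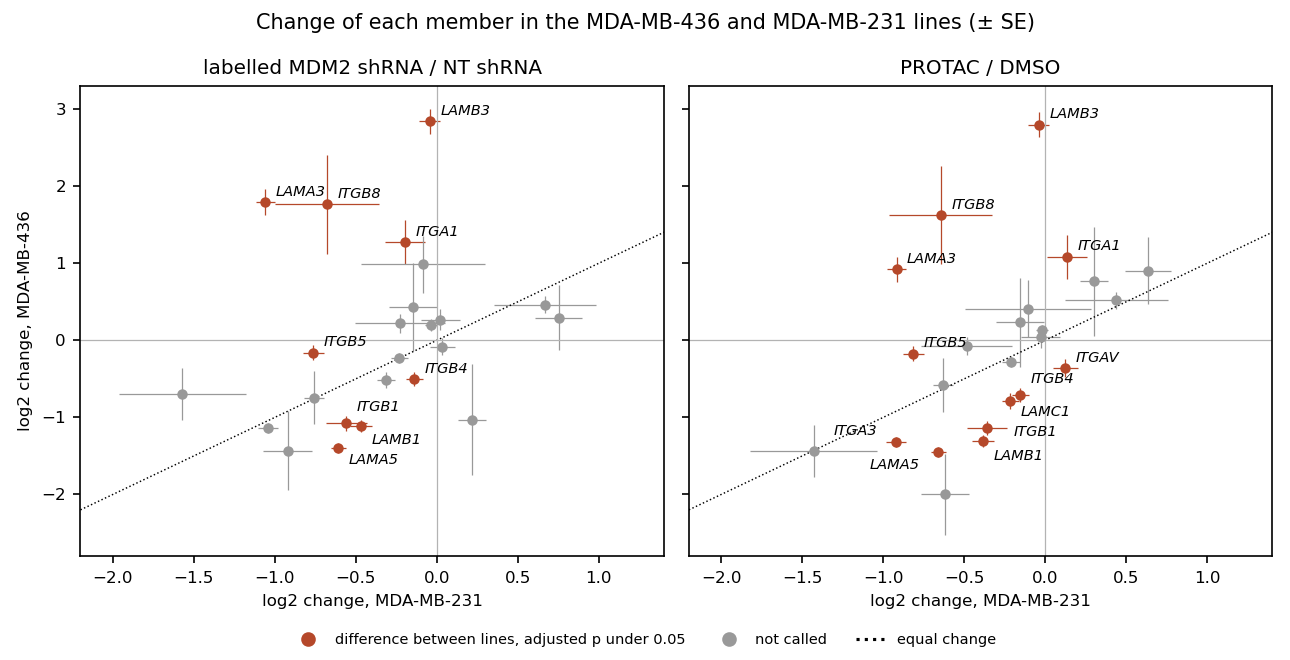
Log2 change in MDA-MB-436 (y axis) against that in MDA-MB-231 (x axis), with standard errors, for the MDM2 shRNA label (left) and the PROTAC (right), for 24 of the 25 members tested in both lines (ITGA11, with very wide errors, is not drawn). Red, named points differed between lines at an adjusted p of 0.05. LAMB3 and LAMA3 lie far above the dotted line of equal change in both panels, and LAMA5 and LAMB1 lie below it.

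Control libraries of the lines differed in most members. In the 6 control libraries of each line, 10 members were higher and 16 lower in MDA-MB-436 than in MDA-MB-231 among 30 tested, or 86.7%, where 66.8% of all genes were called (35.9% higher and 30.9% lower). Among the 30 are ITGA4, ITGAM, ITGAX, ITGB6 and LAMC3, which had too few counts in MDA-MB-231 to be tested there. These passed the filter only through MDA-MB-436, so a higher call for them was largely fixed by the filter. Genes of that kind are also among all genes tested. Levels between genes are given as CPM per kb of exon. ITGB1 led in both lines, with a median of 70.9 in MDA-MB-436 and 212.8 in MDA-MB-231. MDA-MB-436 followed with LAMC1 (40.5), LAMB1 (34.2), LAMA5 (31.6), ITGA3 (31.4) and ITGAV (28.5), and each of those from LAMB1 to ITGA3 overlapped the next in range. In MDA-MB-231 the next were LAMB3 (173.5), ITGA3 (96.2), ITGA6 (58.7), ITGA2 (50.6) and LAMB2 (47.8), where ITGB1 overlapped LAMB3, ITGA6 overlapped ITGA2 and ITGA2 overlapped LAMB2.

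LAMB3 had a wide gap, at 4.02 CPM per kb in MDA-MB-436 and 173.5 in MDA-MB-231 (log2 -5.42 ± 0.114, adjusted p = 4.41e-19). ITGA2 (-4.61 ± 0.311) and LAMA3 (-3.99 ± 0.099) were also lower in MDA-MB-436. LAMA1 (4.99 ± 0.162), ITGA7 (3.23 ± 0.173), LAMB1 (1.78 ± 0.0534) and ITGAV (1.397 ± 0.0685) were higher there. LAMA5 differed little (0.23 ± 0.0419) and LAMC1 was not called (0.10 ± 0.0615, adjusted p = 0.16).

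**Figure D5:**
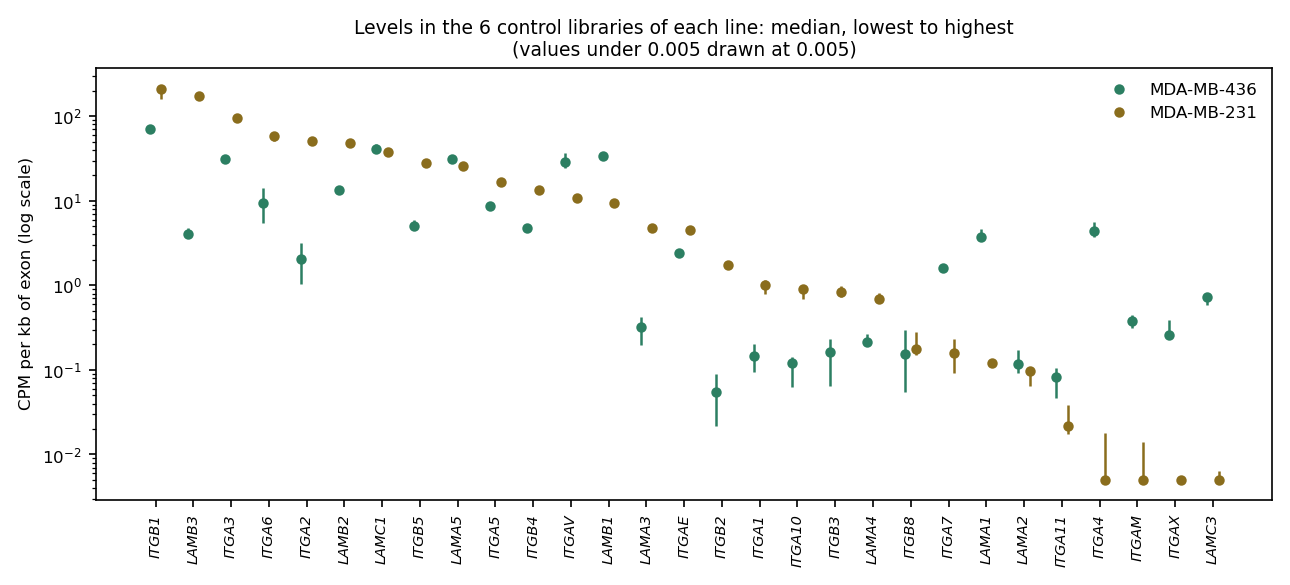
Level in CPM per kb of exon (log axis) of 29 members in the 6 control libraries of MDA-MB-436 (green) and MDA-MB-231 (brown), with the median (point) and the lowest to highest library (line), ordered by the median in MDA-MB-231. ITGB1 leads in both lines, LAMB3 lies far lower in MDA-MB-436, and ITGA4, ITGAM, ITGAX and LAMC3 sit at the floor in MDA-MB-231 only.

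The share of protein-coding genes called lower moved with genomic span, more so in MDA-MB-231, and several members are long. In MDA-MB-231 with the hairpin label, 26.2% of protein-coding genes spanning 100 to 300 kb and 53.5% of those over 300 kb were lower, against 12.8% of those of 30 to 100 kb. Of the members of 100 to 300 kb, 6 of 9 were lower, and of those of 30 to 100 kb 4 of 12 were. With the PROTAC in that line the shares of all genes were 24% and 51.7%, and 5 of 9 members of 100 to 300 kb were lower. In MDA-MB-436 the shares lower with the hairpin label differed less, at 16% of genes under 10 kb and 17.7% of those of 10 to 30 kb. They were 20.2% of genes of 30 to 100 kb, 22.6% of those of 100 to 300 kb and 21.5% of those over 300 kb. With the PROTAC in that line the shares were 12.3%, 16.3%, 22.1%, 30.2% and 27.5%, from the shortest genes to the longest. Of 10 members of 100 to 300 kb there, 2 were lower with the hairpin label and 4 with the PROTAC. The 5 members lower in all 4 comparisons span 24.2 kb (ITGA5), 34.5 kb (ITGA3), 59.4 kb (LAMA5), 79.5 kb (LAMB1) and 122 kb (LAMC1). The part of gene length in the results was not tested.

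Genes that work with integrins and laminins were counted from lists, beside a share of all genes called of 22.7% (hairpin label) and 22.6% (PROTAC) in MDA-MB-231, and of 30.4% and 32.4% in MDA-MB-436. Of 27 tested genes of the cytoplasmic adhesion machinery in MDA-MB-231, 4 were higher and 14 lower with the hairpin label, and 4 and 12 with the PROTAC. In MDA-MB-436 0 of 28 were higher and 12 lower with the hairpin label, and 1 and 13 with the PROTAC. DOCK1, a Rac activator downstream of integrins, fell in all 4, with changes of -1.50 ± 0.0743 and -1.399 ± 0.0741 in MDA-MB-231 and -1.19 ± 0.106 and -1.36 ± 0.107 in MDA-MB-436 (log2, hairpin label then PROTAC). TNS3, a tensin of focal adhesions, changed by -0.46 ± 0.0388 and -0.38 ± 0.0387 in MDA-MB-231 and by -1.403 ± 0.083 and -1.52 ± 0.0833 in the other line. PTK2, the focal adhesion kinase, changed by -0.35 ± 0.0427 and -0.33 ± 0.0427 in MDA-MB-231, then -0.71 ± 0.0475 and -0.84 ± 0.0476 in MDA-MB-436. FLNA, an actin cross-linker, was lower in all 4 as well, from -0.56 ± 0.0347 to -1.04 ± 0.0791. PLEC, the hemidesmosome linker that binds beta4, changed by -0.84 ± 0.0363 and -0.84 ± 0.0363 in MDA-MB-231 and by -0.78 ± 0.0731 and -0.83 ± 0.0732 in MDA-MB-436. It is on a list of 9 hemidesmosome genes and other laminin receptors, of which 1 was higher and 1 lower with the hairpin label in MDA-MB-231, 1 and 2 with the PROTAC, 2 and 4 with the hairpin label in MDA-MB-436, and 1 and 3 with the PROTAC. The 2 called of 9 for the hairpin label in MDA-MB-231 are near the share of all genes. DST, the other linker of hemidesmosomes, was called lower in MDA-MB-436 (-0.76 ± 0.206 and -1.31 ± 0.208) and not called in MDA-MB-231. SGCE, a sarcoglycan of the dystroglycan complex, was higher in MDA-MB-436 (0.49 ± 0.0803 and 0.39 ± 0.0803), and CD151, a tetraspanin bound to laminin-binding integrins, was lower there for the hairpin label alone among the calls (-0.48 ± 0.0781).

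Of 10 tested basement membrane partners of laminin in MDA-MB-231, 0 were higher and 8 lower with the hairpin label, and 0 and 7 with the PROTAC. In MDA-MB-436 3 of 12 were higher and 4 lower with the hairpin label, and 3 and 5 with the PROTAC. HSPG2, the heparan sulfate proteoglycan perlecan, changed by -1.23 ± 0.0441 and -1.22 ± 0.0441 in MDA-MB-231, and by -0.19 ± 0.0832 (not called) and -0.42 ± 0.0833 in MDA-MB-436. COL7A1, the collagen of anchoring fibrils, was slightly lower in MDA-MB-231 (-0.18 ± 0.0592 and -0.24 ± 0.0592) and higher in MDA-MB-436 (1.04 ± 0.0958 and 1.02 ± 0.0959), the same pair of directions as LAMA3. COL4A2, a chain of the type IV collagen network (-0.73 ± 0.0402 and -0.73 ± 0.0402), and FRAS1, an extracellular matrix protein (-0.87 ± 0.0542 and -0.75 ± 0.0541), were lower in both treatments of MDA-MB-231 and not called in MDA-MB-436.

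Among 17 tested other integrin ligands, 3 were higher and 5 lower with the hairpin label in MDA-MB-231 and 4 and 4 with the PROTAC. Counts in MDA-MB-436 were 2 higher and 4 lower with the hairpin label, then 2 and 6 with the PROTAC. TNC, the matrix protein tenascin-C, fell in MDA-MB-231 (-1.07 ± 0.0579 and -1.10 ± 0.0579), while ICAM1, a ligand of beta2 integrins, rose there (1.09 ± 0.0838 and 1.116 ± 0.0839). EDIL3, a ligand of alphaV integrins, fell in MDA-MB-231 too (-1.18 ± 0.0696 and -1.25 ± 0.0697). THBS1, thrombospondin, fell in MDA-MB-436 (-1.03 ± 0.111 and -1.11 ± 0.111). Of 14 tetraspanins and other lateral partners, 2 were higher and 3 lower with the hairpin label in MDA-MB-231, 2 and 4 with the PROTAC, 3 and 7 with the hairpin label in MDA-MB-436, and 3 and 5 with the PROTAC. SLC3A2, the CD98 heavy chain that binds beta1, rose in MDA-MB-436 (1.24 ± 0.097 and 1.35 ± 0.0973), and CD44, the hyaluronan receptor, fell there (-0.79 ± 0.0666 and -0.82 ± 0.0667). CD82, a tetraspanin, was lower in MDA-MB-231 (-0.88 ± 0.195 and -0.66 ± 0.195) and higher in MDA-MB-436 (0.86 ± 0.119 and 1.19 ± 0.12). CAV1, the caveolae protein, was lower in all 4, from -0.17 ± 0.0361 to -0.61 ± 0.0631.

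Markers of other states moved too. The summed mesenchymal markers ran from 4080 to 4330 CPM with the MDM2 shRNA label and from 6678 to 8240 CPM with the non-targeting shRNA in MDA-MB-231, and from 4008 to 4287 CPM with the PROTAC and 6627 to 6766 CPM with DMSO. In MDA-MB-436 the summed epithelial markers ran from 523 to 582 CPM with the MDM2 shRNA label and from 987 to 1122 CPM with the non-targeting shRNA, and from 441 to 550.2 CPM with the PROTAC and 856 to 915 CPM with DMSO. Fibroblast markers summed to 42.2 to 43.6 CPM with the MDM2 shRNA label and 21.9 to 24.4 CPM with the non-targeting shRNA in MDA-MB-231, and to 38.7 to 43.9 CPM with the PROTAC and 21.8 to 25.7 CPM with DMSO, while DCN, a defining fibroblast gene, was at 0 in every group. Of the mesenchymal markers 2 of 6 were lower with the hairpin label and 3 of 6 with the PROTAC in MDA-MB-231, and none was higher. In MDA-MB-436 5 of 6 were lower in each treatment, and their sum ran from 1082 to 1099 CPM with the MDM2 shRNA label and 1323 to 1424 CPM with the non-targeting shRNA, and from 1007 to 1114 CPM with the PROTAC and 1489 to 1548 CPM with DMSO. Of 4 fibroblast markers tested in MDA-MB-231, 2 were higher with the hairpin label and 3 with the PROTAC. Of the epithelial markers in MDA-MB-436, 3 of 7 were higher and 2 lower with the hairpin label, and 1 and 2 with the PROTAC. Their part in the changes of the members was not tested.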

How the data were processed

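The sources used here state neither the counting strand nor the PROTAC dose nor any hairpin sequence. The authors deposited whole-number read counts for 60675 Ensembl genes per library, 24 libraries in all. Per the submitters' processing notes, cutadapt 2.4, HISAT2, StringTie and edgeR were used, with GRCh38. Replicates were not pooled, each library having counts of its own.

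From these counts, genes kept by edgeR's filterByExpr (minimum count 10) were scaled by TMM and tested with edgeR's quasi-likelihood test and Benjamini-Hochberg adjustment over all genes tested, at 0.05. The 12 libraries of a line shared 1 fit with 1 mean per group (8 residual degrees of freedom) for treatment effects and for the PROTAC effect minus the hairpin effect. All 24 libraries shared 1 fit (16 residual degrees of freedom) for differences between lines. The procedure was also run on counts simulated from its own fitted model, with changes planted only in genes of at least 1 CPM. Such a run cannot check the model itself or the genes with fewer counts. Versions were R 4.3.3, edgeR 4.0.16, limma 3.58.1, DESeq2 1.42.0, Python 3.11.15 and matplotlib 3.10.9. Of the identifiers, 57055 matched GENCODE 29, which gave coordinates, exon lengths and overlaps on GRCh38.

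The members and the lists of related genes and markers were chosen with earlier results of these data known. All members are named. CPM of every library is given for those called in at least 2 treatment comparisons, or in 1 with at least a 2-fold change, with a group mean of at least 1 CPM. Up to 4 genes of each list of related genes were named by the smallest adjusted p. Alternatives were other scaling, other filters, DESeq2, limma voom, a replicate block, other sets of libraries in the fit, each library left out, and counts divided by 4 and rounded, because counts of 4 were 1.2 to 1.64 times as frequent as the mean of counts of 3 and 5.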

Additional observations from a re-analysis of the deposited data

Results flagged for a closer look

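Each value here is the log2 change in MDA-MB-436 minus that in MDA-MB-231, and was picked out because the treatment effect differed between the lines in edgeR's quasi-likelihood test of that difference (adjusted p under 0.05). For the MDM2 shRNA label, positive differences were 1.463 for ITGA1, 0.5869 for ITGB5, 2.431 for ITGB8, 2.832 for LAMA3 and 2.868 for LAMB3. Negative ones were -0.5353 for ITGB1, -0.3749 for ITGB4, -0.8021 for LAMA5 and -0.6563 for LAMB1. For the PROTAC, positive differences were 0.9454 for ITGA1, 0.646 for ITGB5, 2.261 for ITGB8, 1.845 for LAMA3 and 2.848 for LAMB3. Negative ones were -0.39 for ITGA3, -0.487 for ITGAV, -0.7778 for ITGB1, -0.5561 for ITGB4, -0.7852 for LAMA5, -0.9205 for LAMB1 and -0.5689 for LAMC1.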

How the results depend on the processing

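No called change of a member reversed under any alternative, and none that was not called turned into a call of the other sign. Each count of members called stayed within 1.5 times its value. Leaving out 1 library gave 11 to 13 members called for the hairpin label and 9 to 12 for the PROTAC in MDA-MB-231, and 12 to 16 and 15 to 17 in MDA-MB-436. It gave 8 to 11 for the line difference of the hairpin label, 10 to 13 for that of the PROTAC, 25 to 27 between control libraries, and 0 for the PROTAC against the hairpin label in both lines. Over single members, 2408 values kept their side of the threshold with 1 library left out, 69 lost a call and 19 gained one. Under the other alternatives 1405 kept it, 33 lost a call and 38 gained one.

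Replicate numbers did not pair the libraries: same-numbered libraries of a treated group and its control had correlations of their deviations of at least -0.03, none over 0.1, and at most 1 of 3 pairs in a comparison was closest to its own number. With the replicate block, 12 and 12 members were called for MDA-MB-231 (hairpin label, then PROTAC), 14 and 16 for MDA-MB-436, 10 and 12 between lines, 25 between control libraries and 0 for the PROTAC against the hairpin label in both lines. For that last comparison DESeq2 called 38 genes of all for MDA-MB-231 and 35 for MDA-MB-436, where edgeR called 1 in each, and without PROTAC replicate 2 edgeR called 25 in MDA-MB-436. Depth limits the members with few counts, whose changes may be missed, and changes of members not tested in a line were not detectable there.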
